A study of Mus musculus with 2 samples.

Results

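The interleukin 17 programme was followed through 6 genes, selected as the rows of the deposited matrices whose symbol is Il17a, Il17f, Il22, Il23r, Ccr6 or Il17ra. All 6 were found among the 32285 genes of the files. They were read in 2 single-cell libraries of mouse optic nerve, 1 from animals treated with an antibody to PD-1 (anti-PD-1, labelled anti-PDCD1) and 1 from animals treated with an antibody to TIGIT (anti-TIGIT). PD-1 and TIGIT are inhibitory receptors of T cells. Both libraries came from 12-week-old Nf1-OPG mice (Nf1flox/neo; GFAP-Cre), which carry a neomycin insertion in exon 31 of one Nf1 allele in every cell, lose Nf1 in neuroglial progenitors through Cre driven by GFAP, and develop gliomas of the optic pathway. Nerves of 10 mice were pooled per library, live cells were sorted by 7-AAD exclusion and 5' ends of transcripts were sequenced on the 10x Genomics platform. Each treatment is therefore 1 pooled library, with no replicate and no untreated library analysed here. No difference between the treatments could be tested, and every 95% interval below covers counting error only. The extraction protocol also mentions meningeal dura. The anti-PD-1 file was written by Cell Ranger 8.0.0 and the anti-TIGIT file by Cell Ranger 8.0.1, so treatment, mice and software version cannot be told apart.

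In type 17 immunity, interleukin 23 acts through its receptor chain IL-23R on certain T cells and innate lymphoid cells. Those cells release IL-17A, IL-17F and IL-22, and many of them carry CCR6, which follows the chemokine CCL20 into tissues. IL-17A and IL-17F signal through IL-17RA paired with IL-17RC on epithelial, stromal and myeloid cells, which answer with neutrophil-attracting chemokines and acute-phase proteins. In mouse brain borders and other barrier tissues, gamma-delta T cells with the Vgamma6 chain are a well-known source of IL-17A.

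The ligands Il17a (chromosome 1, 20730905 to 20734496, plus strand) and Il17f (chromosome 1, 20777146 to 20790617, minus strand) are neighbours. Il22 lies on chromosome 10 (118204942 to 118210047, plus strand), Il23r on chromosome 6 (67422932 to 67491855, minus strand), Il17ra on chromosome 6 (120463247 to 120487559, plus strand) and Ccr6 on chromosome 17 (8236043 to 8257141, plus strand). These are GENCODE positions on GRCm38, and all 6 genes are protein coding. The 250 bases before the RefSeq start (GRCm38.p6) are shown for the ligands and for Il23r, because the first results concern which cells hold these genes together. Capitals mark TATAAA, a form of the TATA box at which transcription of many inducible genes is set up, searched on both strands (reverse complement TTTATA). Sequences run 5′ to 3′ on the strand of the gene.
Il17a, chr1:20730655-20730904, plus strand: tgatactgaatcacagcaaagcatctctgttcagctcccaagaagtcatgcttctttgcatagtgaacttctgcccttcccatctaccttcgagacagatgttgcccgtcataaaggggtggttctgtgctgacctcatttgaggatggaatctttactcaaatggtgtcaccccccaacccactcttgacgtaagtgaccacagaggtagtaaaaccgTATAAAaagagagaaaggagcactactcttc
Il17f, chr1:20784271-20784520, minus strand: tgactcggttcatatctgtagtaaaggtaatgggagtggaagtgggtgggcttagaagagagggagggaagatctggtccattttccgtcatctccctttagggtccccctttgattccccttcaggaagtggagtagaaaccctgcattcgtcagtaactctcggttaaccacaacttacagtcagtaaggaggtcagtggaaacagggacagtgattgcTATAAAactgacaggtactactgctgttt
Il23r, chr6:67491856-67492105, minus strand: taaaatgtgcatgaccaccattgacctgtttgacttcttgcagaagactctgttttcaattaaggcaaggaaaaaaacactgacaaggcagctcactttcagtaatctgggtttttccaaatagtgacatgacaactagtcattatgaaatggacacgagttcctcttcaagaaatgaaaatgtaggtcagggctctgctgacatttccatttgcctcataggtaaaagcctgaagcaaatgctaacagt
Il22, chr10:118204714-118204963, plus strand: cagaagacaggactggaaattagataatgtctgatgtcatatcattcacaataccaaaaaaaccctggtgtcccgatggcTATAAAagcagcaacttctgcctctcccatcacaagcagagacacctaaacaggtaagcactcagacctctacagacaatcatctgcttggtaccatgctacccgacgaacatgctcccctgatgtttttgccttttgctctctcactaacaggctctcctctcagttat
The first base of the motif lay 31 bases before the start of Il17a, 29 before that of Il17f and 170 before that of Il22, each on the strand of the gene. The window of Il23r held none, nor did that of Ccr6 (chr17:8235793-8236042, plus strand). RefSeq promoters were at hand for 5 of the 6 genes, and 3 of the 5 held the motif, as did 12.4% of the 32851 promoters in the table. A match of 6 letters describes the sequence and is not a measured binding site.

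The files held 13997 barcodes in the anti-PD-1 library and 7915 in the anti-TIGIT library, of which 13275 and 7495 were retained after filters on genes, mitochondrial UMIs and predicted doublets. The median was 4453 and 4126 UMIs (unique molecular identifiers, each a counted transcript) per retained cell. The libraries shared 163 barcode sequences. No cell with Il17a, Il17f or Il22 carried a shared barcode, and 8 cells with Ccr6 in the anti-PD-1 library and 3 in the anti-TIGIT library did. T cells were gated by marker genes, 3292 in the anti-PD-1 library and 1400 in the anti-TIGIT library, and Cd3e was present in 98.5% and 96.8% of them. The median T cell held 3482 UMIs with anti-PD-1 and 2858.5 with anti-TIGIT. Free RNA was present: Mbp, a myelin gene, had UMIs in 94.3% of anti-PD-1 T cells and 88.3% of anti-TIGIT T cells. The share of T cells with Xist and no Y-linked transcript differed as well, at 23.8% with anti-PD-1 against 8.14% with anti-TIGIT. The gap was smaller over all retained cells, where anti-PD-1 had 3089 such cells among 13275 and anti-TIGIT had 1493 among 7495. Whether the mix of animals differed was not tested.

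Il17a, the founding cytokine of the family, was rare and concentrated in few cells. In the anti-PD-1 library 11 of 3292 T cells held it, with 61, 47, 38, 19, 16, 10, 8, 7, 3, 2 and 1 UMIs. In the anti-TIGIT library 4 of 1400 T cells held it, with 5, 3, 2 and 1 UMIs. The median positive cell held 10 UMIs in the anti-PD-1 library and 2.5 in the anti-TIGIT library, and the 2 ranges overlapped at the low end. The shares of positive T cells lay close together, at 0.334% in the anti-PD-1 library (95% interval 0.167 to 0.597) and 0.286% in the anti-TIGIT library (0.0779 to 0.730). With every cell thinned to 1000 UMIs, which left out 42 anti-PD-1 and 13 anti-TIGIT T cells below that depth, the shares were 0.256% and 0.176%, a difference of 0.081 percentage points (-0.338 to 0.364). Oligodendrocytes, which do not make the cytokine, held no Il17a UMI in 2720 anti-PD-1 cells and 2015 anti-TIGIT cells, which allows shares of up to 0.110% and 0.149%.

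**Figure D1:**
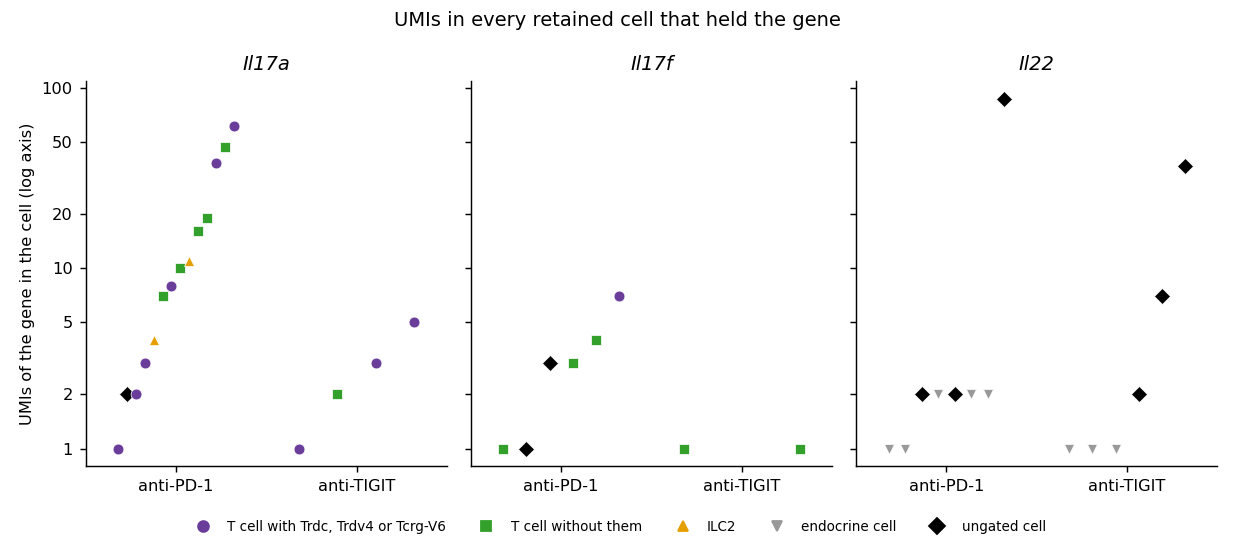
UMIs of Il17a, Il17f and Il22 (log axis) in every retained cell that held the gene, with the anti-PD-1 library left of the anti-TIGIT library and symbols for the kind of cell. Il17a reached 61 UMIs in an anti-PD-1 T cell and 5 in an anti-TIGIT T cell, and no T cell held Il22.

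Summed over T cells, the level of Il17a was 13.7 CPM (UMIs per 1000000 UMIs of those cells) in the anti-PD-1 library (12.0 to 15.7) and 2.17 CPM in the anti-TIGIT library (1.08 to 3.88). The log2 ratio, anti-PD-1 over anti-TIGIT, was 2.66 (1.79 to 3.69). The 3 richest anti-PD-1 cells held 146 of the 212 UMIs, 68.9%, and UMIs of 1 cell are not independent, so that interval is too narrow. Without the richest cell of each library the counts were 151 in the anti-PD-1 library and 6 in the anti-TIGIT library, and the log2 ratio was 3.05. Without T cells that also held a B cell marker it was 3.63, since 1 of the 4 anti-TIGIT cells, with 5 UMIs, left. Among T cells with Y-linked transcripts and no Xist it was 1.85 (0.62 to 3.37), from 46 UMIs in the anti-PD-1 library and 6 in the anti-TIGIT library.

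On log2(CPM + 5), used for counts across genes, Il17a differed by 1.39 and was the only member past 2-fold in T cells, of 5 members with at least 10 UMIs. The background is that 1.31% of 14881 genes were past 2-fold higher and 0.484% past 2-fold lower in anti-PD-1 T cells. The median difference was 0.15 for the 5 members and 0.02 for all genes tested. In CD8 T cells 1 of 2 members tested, Ccr6, was past 2-fold higher and none lower, against 1.88% and 0.711% of 13079 genes.

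The T cells with Il17a were spread over several subgroups of the gate. Gamma-delta T cells, those with Trdc, the delta constant region, numbered 29 in the anti-PD-1 library and 17 in the anti-TIGIT library. They held 110 Il17a UMIs in 4 cells (951 CPM) in the anti-PD-1 library, against 6 UMIs in 2 cells (115 CPM) in the anti-TIGIT library, a log2 ratio of 3.05 (1.88 to 4.53). Their shares of positive cells were 13.8% in the anti-PD-1 library and 11.8% in the anti-TIGIT library. T cells with none of Trdc, Foxp3, Cd8a, Cd8b1 or Cd4 held 83 UMIs in 4 cells (29.5 CPM) and 5 UMIs in 2 cells (4.53 CPM), a log2 ratio of 2.70 (1.42 to 4.36). The 3 remaining cells were all from the anti-PD-1 library. One held Foxp3, the regulatory T cell factor, with 10 Il17a UMIs. Another held Cd4 with 7, and the last was gated as CD8 through a single Cd8b1 UMI, with 2. That last cell also held 6 UMIs of Trdv4 and 4 of Tcrg-V6, variable segments of gamma-delta receptors. An anti-PD-1 cell (8 and 9 UMIs) and an anti-TIGIT cell (6 and 4 UMIs) gated without Trdc, Foxp3, Cd8a, Cd8b1 and Cd4 held both as well. The gate by Trdc alone therefore missed cells with other gamma-delta segments.

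Genes of the Vgamma6 lineage were found in part of these cells. Of the 15 T cells with Il17a in both libraries, 8 held Trdv4, a delta variable segment, 7 held Tcrg-V6, the Vgamma6 segment, and 9 held any of Trdc, Trdv4 and Tcrg-V6. All 15 held Tmem176a and Tmem176b, membrane proteins known from type 17 lymphocytes. Tmem176b was found in 9.69% of anti-PD-1 T cells and 7.95% of anti-TIGIT T cells without Il17a. Il7r, the interleukin 7 receptor, was in 13 of the 15, Cxcr6 in 13, Blk, a Src-family kinase of these gamma-delta cells, in 9, and the scavenger receptor Cd163l1 in 7. The regulators Zbtb16 and Sox13 were in 5 and 3. Of the members, Ccr6 was in 2 of the 15 and Il17ra in 1. Ccr6 was in 5.58% of anti-PD-1 T cells and 2.44% of anti-TIGIT T cells without Il17a. Trac, the alpha constant region, was in 5, and Trbc2, a beta constant region, in 13. Trbc2 was in 74.1% of anti-PD-1 T cells and 66.3% of anti-TIGIT T cells without Il17a. Of the 6 T cells with Il17f in both libraries, 0 held Trdv4 and 0 held Tcrg-V6. Gata3 and Il1rl1, which mark type 2 cells, were in none.

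T cells with Trdv4 were about as many in the smaller library: 14 in the anti-PD-1 library and 16 in the anti-TIGIT library. Il17a was in 5 of the 14 anti-PD-1 cells with 75 UMIs, and in 3 of the 16 anti-TIGIT cells with 9 UMIs. The shares, 35.7% (12.8 to 64.9) and 18.8% (4.05 to 45.6), overlapped widely.

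**Figure D2:**
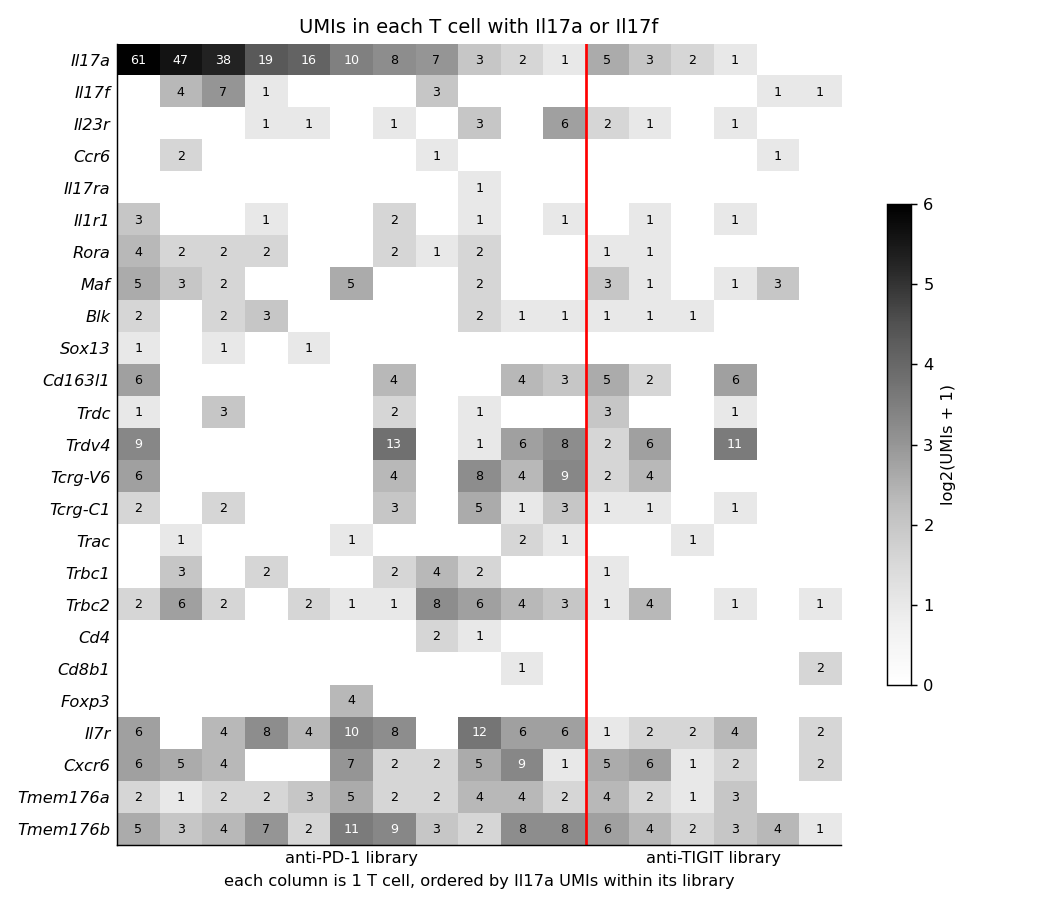
UMIs of 25 genes (rows) in the 17 T cells that held Il17a or Il17f (columns), 11 from the anti-PD-1 library left of 6 from the anti-TIGIT library, shaded by log2(UMIs + 1). Trdv4 and Tcrg-V6 were found in part of the cells of both libraries. Il17f shared a cell with Il17a in the anti-PD-1 library alone, in 4 cells.

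Outside the gate markers and pathway lists, ranked over 557 genes by the smaller of the log2 ratios of the 2 libraries, T cells with Il17a or Il17f over all other T cells, the closest genes were Trdv4 and Tcrg-V6. Trdv4 had a log2 ratio of 6.68 in the anti-PD-1 library and 5.48 in the anti-TIGIT library, and Tcrg-V6 had 6.06 and 4.01. Tmem64 (smaller ratio 2.30), Nfkbid (2.13), Lgals3 (1.95), S100a4 (1.86), Znrf1 (1.70), Gpx1 (1.68), Tnf (1.66) and Selenop (1.63) followed. Nfkbid encodes a nuclear regulator of NF-kB and Tnf the cytokine TNF. Among the list genes left out of this ranking, Cd163l1 had 5.59 in the anti-PD-1 library and 5.35 in the anti-TIGIT library, Serpinb1a 4.67 and 4.09, and Tmem176b 3.99 and 3.68. The ratios rest on 11 and 6 cells and carry no test. Tcrg-V6 had 6 UMIs in the positive anti-TIGIT cells. These include the cells with Il17a counted above, so the ranking is no separate support.

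Il17a also appeared outside the T cell gate, in the anti-PD-1 library alone. Among group 2 innate lymphoid cells, which are known for IL-5 and IL-13, 2 of 69 held 11 and 4 UMIs, and both carried Il13 and Il1rl1 and no Cd3e UMI. Il13 and Il1rl1 are among the markers of that gate, so they are no separate support. The cell with 4 UMIs held no UMI of Gata3, another of its markers. None of 36 such anti-TIGIT cells held it, which allows a share of up to 8.33%. One ungated anti-PD-1 cell without Cd3e held 2 Il17a and 3 Il17f UMIs.

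Il17f, the closest relative of Il17a, was rarer. The anti-PD-1 T cells with it held 7, 4, 3 and 1 UMIs, and the 2 anti-TIGIT T cells held 1 each. Every one of the 4 anti-PD-1 cells also held Il17a, with 38, 47, 7 and 19 UMIs of it, and neither anti-TIGIT cell did. The level was 0.972 CPM in the anti-PD-1 library (0.544 to 1.60) and 0.394 CPM in the anti-TIGIT library (0.0477 to 1.42), a log2 ratio of 1.30 (-0.80 to 4.47). The intervals overlapped, and a difference was not detectable at this depth. A further 2 ungated anti-PD-1 cells held 3 and 1 UMIs, and neither had a UMI of Cd3d, Cd3e or Cd3g. The second of these held 13 UMIs of Cd4, 6 of Kit, 11 of Il7r, 9 of Ccr6 and 2 of Il23r. In clusters whose gated cells were mostly T cells, with 19 and 1 UMIs, the ratio was 2.82 (0.17 to 8.20). Those clusters took in both ungated cells, so the value is not one of gated T cells alone.

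Il22, which acts on epithelial and stromal cells rather than on leukocytes, had no UMI in T cells. That is 0 of 3292 anti-PD-1 T cells, which allows a share of up to 0.0911%, and 0 of 1400 anti-TIGIT T cells, which allows up to 0.214%. Its UMIs lay in cells that no gate claimed. The anti-PD-1 library had 3 such cells with 87, 2 and 2 UMIs, and the anti-TIGIT library had 3 with 37, 7 and 2 UMIs of Il22, so that 1 cell held most of the transcript in each library. All 6 lacked Cd3d, Cd3e and Cd3g. Il7r was in 3 of 3 anti-PD-1 cells and 2 of 3 anti-TIGIT cells, and Il23r in 1 and 2 of them. None of the 6 held Il17a. They had 2596, 2887 and 2929 UMIs of all genes in the anti-PD-1 library and 2800, 673 and 538 in the anti-TIGIT library. The remaining Il22 UMIs were in cells with pituitary hormone genes such as Pomc and Cga, 8 UMIs in 5 of 32 anti-PD-1 cells and 3 UMIs in 3 of 57 anti-TIGIT cells, at no more than 2 UMIs per cell.

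Il23r, the receptor chain that interleukin 23 needs, was held by 23 anti-PD-1 T cells with 58 UMIs and by 14 anti-TIGIT T cells with 25 UMIs. The highest cell had 13 UMIs in the anti-PD-1 library and 5 in the anti-TIGIT library, and 12 and 8 cells had a single UMI. The levels overlapped, at 3.76 CPM (2.85 to 4.86) and 4.93 CPM (3.19 to 7.27), a log2 ratio of -0.39 (-1.09 to 0.35). The thinned shares were 0.334% and 0.475%, a difference of -0.141 percentage points (-0.689 to 0.252). The interval lay below 0 with 4 markers needed for the T cell gate (-0.82, -1.56 to -0.06) and in T cells with Y-linked transcripts only (-1.51, -2.93 to -0.14). It also lay below 0 in clusters whose gated cells were mostly T cells (-0.59, -1.15 to -0.01), which took in cells outside the T cell gate. Il17a and Il23r sat partly in the same cells: 8 of the 15 T cells with Il17a held Il23r, 5 from the anti-PD-1 library and 3 from the anti-TIGIT library. Among T cells with Trdv4, Il23r was in 7 of 14 anti-PD-1 cells with 24 UMIs and in 8 of 16 anti-TIGIT cells with 16 UMIs. Of all 37 T cells with Il23r, 35 held Il7r, 32 Tmem176b, 18 Il1r1, the receptor of interleukin 1, and 15 Trdv4. Trdc-positive cells reached 156 CPM in the anti-PD-1 library and 172 CPM in the anti-TIGIT library. Outside T cells, ungated cells held 28 UMIs in 15 anti-PD-1 cells and 17 UMIs in 10 anti-TIGIT cells, and migratory dendritic cells held 5 UMIs in 4 of 102 anti-PD-1 cells.

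Ccr6, the receptor of CCL20, was more frequent in anti-PD-1 T cells than in anti-TIGIT T cells. It was held by 185 of 3292 anti-PD-1 T cells, with 322 UMIs and at most 9 in a cell, and by 34 of 1400 anti-TIGIT T cells, with 49 UMIs and at most 4. Most positive cells had a single UMI, 116 of 185 with anti-PD-1 and 25 of 34 with anti-TIGIT. The level was 20.9 CPM (18.6 to 23.3) in the anti-PD-1 library and 9.66 CPM (7.14 to 12.8) in the anti-TIGIT library, a log2 ratio of 1.11 (0.67 to 1.58). The difference on log2(CPM + 5) was 0.82, short of 2-fold. The shares were 5.62% (4.86 to 6.46) and 2.43% (1.69 to 3.38). At 1000 UMIs per cell they were 1.60% and 0.587%, a difference of 1.01 percentage points (0.32 to 1.60), and at 500 UMIs per cell it was 0.522 points (-0.006 to 0.950). Oligodendrocytes, as a background, had 0.331% of anti-PD-1 cells and 0.0993% of anti-TIGIT cells with a UMI before thinning, and 0.090% and 0.015% after it.

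Among the T cell subgroups with UMIs in both libraries, the ratio was highest in CD8 T cells. Ccr6 was in 94 of 1543 anti-PD-1 CD8 T cells with 180 UMIs (24.3 CPM, 20.9 to 28.1), against 9 of 623 anti-TIGIT CD8 T cells with 15 UMIs (6.0 CPM, 3.36 to 9.90). The log2 ratio was 2.02 (1.26 to 2.89), and the thinned shares were 1.74% and 0.302%, a difference of 1.44 percentage points (0.42 to 2.27). Without CD8 T cells the log2 ratio over the other T cells was 0.42 (-0.13 to 1.01). CD4 T cells had 26.7 CPM in the anti-PD-1 library and 16.5 CPM in the anti-TIGIT library, a log2 ratio of 0.70 (-0.09 to 1.57). Regulatory T cells had 13.7 CPM and 23.3 CPM, a log2 ratio of -0.77 (-1.84 to 0.46). Among gamma-delta T cells only 2 UMIs were found, both in the anti-PD-1 library.

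**Figure D3:**
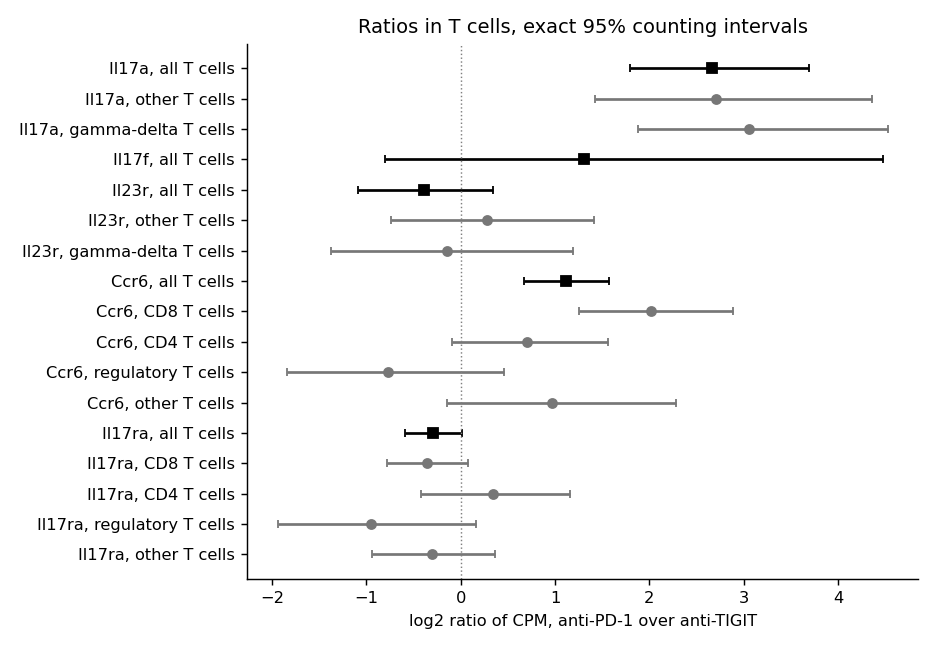
Log2 ratio, anti-PD-1 over anti-TIGIT, of the summed level of each member in all T cells and in T cell subgroups, with exact 95% intervals for counting error. In all T cells the intervals of Il17a (2.66) and Ccr6 (1.11) lie above 0, and those of Il17f, Il23r and Il17ra hold 0.

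Ccr6 varied with the depth of the cell. Positive T cells held a median of 5909 UMIs in the anti-PD-1 library and 6292 in the anti-TIGIT library, against 3399 and 2829 in T cells without Ccr6. Below 2500 UMIs, 22 of 877 anti-PD-1 T cells (2.51%) and 2 of 522 anti-TIGIT T cells (0.383%) were positive, a difference of 2.13 percentage points (0.76 to 3.43). From 2500 to below 5000 UMIs the shares were 3.71% and 1.34%, a difference of 2.37 points (0.87 to 3.68). From 5000 UMIs they were 11.6% and 11.1%, a difference of 0.51 points (-4.94 to 5.01), so the deepest T cells did not differ beyond counting error. In CD8 T cells of that depth the shares were 12.4% and 7.55%.

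**Figure D4:**
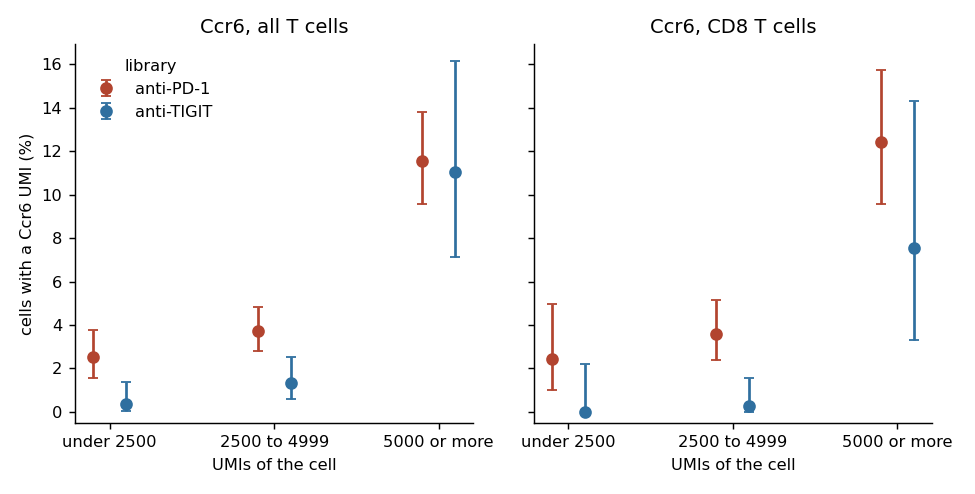
Share of T cells (left) and CD8 T cells (right) with a Ccr6 UMI by UMIs per cell, anti-PD-1 left of anti-TIGIT in each band, with exact binomial 95% intervals. In the deepest band the T cell shares were 11.6% and 11.1%.

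Within CD8 T cells, Ccr6 was found more often in cells with a UMI of Pdcd1, the gene of PD-1. Cells with Pdcd1 were also deeper. Their median was 4019 UMIs against 3758 in the anti-PD-1 library, and 3822 against 2941 in the anti-TIGIT library. With Pdcd1 it was in 87 of 1171 anti-PD-1 cells (7.43%) and 8 of 193 anti-TIGIT cells (4.15%), and without Pdcd1 in 7 of 372 (1.88%) and 1 of 430 (0.233%). Thinned to 1000 UMIs, the cells with Pdcd1 had 2.14% and 0.904%, a difference of 1.23 percentage points (-1.47 to 2.53), and those without it 0.496% and 0.0321%. The intervals with and without Pdcd1 overlapped in each library. They were 1.38 to 3.14 and 0.05 to 1.88 in the anti-PD-1 library. The anti-TIGIT values rest on 1.74 and 0.137 expected cells. The anti-PD-1 library also held the larger share of CD8 T cells with Pdcd1. B cells, which carry CCR6 as well, were the class with the highest level, 94.9 CPM in the anti-PD-1 library (80.0 to 112) and 122 CPM in the anti-TIGIT library (98.9 to 148). A B cell marker was present in 23 of 185 anti-PD-1 T cells with Ccr6 (12.4%) and in 6.05% of those without it, and in 0 of 34 anti-TIGIT T cells with Ccr6. Leaving out every T cell with a B cell marker, 270 UMIs in the anti-PD-1 library and 49 in the anti-TIGIT library remained, a log2 ratio of 0.95 (0.51 to 1.42).

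In gated classes other than T and B cells Ccr6 had few UMIs. Ungated cells held 81 UMIs in 41 anti-PD-1 cells and 37 UMIs in 24 anti-TIGIT cells. Type 2 conventional dendritic cells had 8.94 CPM in the anti-PD-1 library and 3.88 CPM in the anti-TIGIT library (21 and 11 UMIs), a log2 ratio of 1.21 (0.09 to 2.41). Migratory dendritic cells had 27.9 CPM from 16 UMIs in 102 anti-PD-1 cells and 20.1 CPM from 3 UMIs in 31 anti-TIGIT cells, no lower than T cells. Microglia had 3.46 CPM and 4.63 CPM. Natural killer cells, border macrophages and fibroblasts had no UMI in either library.

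Il17ra, the shared receptor chain for IL-17A and IL-17F, was the most widely found member, with 1204 UMIs in 1029 anti-PD-1 cells and 787 UMIs in 682 anti-TIGIT cells, in 18 classes of each. It was in 283 anti-PD-1 T cells (8.60%) and 124 anti-TIGIT T cells (8.86%). Their level was 20.7 CPM (18.5 to 23.1) and 25.4 CPM (21.2 to 30.2), a log2 ratio of -0.29 (-0.59 to 0.01). The interval lay just below 0 with 4 markers needed for the gate (-0.35, -0.66 to -0.03). It did so too in the clusters of mostly T cells (-0.34, -0.62 to -0.05), which took in cells outside the gate. The ratios in CD8 (-0.36), CD4 (0.34) and regulatory T cells (-0.95) all had intervals that held 0.

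Over the 11 classes, Il17ra was highest in natural killer cells, type 2 conventional dendritic cells, border macrophages and microglia. The natural killer values rest on 11 UMIs in the anti-PD-1 library and 8 in the anti-TIGIT library. In the anti-PD-1 library natural killer cells had 42.1 CPM, type 2 conventional dendritic cells 32.4, border macrophages 29.1, microglia 23.5, T cells 20.7, B cells 19.8, fibroblasts 19.8, plasma cells 10.5, oligodendrocyte precursors 9.97, oligodendrocytes 6.18 and type 1 conventional dendritic cells 6.12. In the anti-TIGIT library type 2 conventional dendritic cells had 43.3 CPM, border macrophages 43.2, microglia 42.7, natural killer cells 30.9, T cells 25.4, B cells 19.7, type 1 conventional dendritic cells 14.2, fibroblasts 14.0, plasma cells 11.6, oligodendrocyte precursors 6.98 and oligodendrocytes 5.38. Neighbours in these orders had overlapping intervals, except fibroblasts and plasma cells in the anti-PD-1 library. The order by CPM differs from that by share of cells. Plasma cells, with a median of 15698 UMIs in the anti-PD-1 library and 16418 in the anti-TIGIT library, held Il17ra in 14.7% and 16.8% of cells. Monocytes, with 49 and 45 cells, had 98.2 CPM in the anti-PD-1 library and 70.2 CPM in the anti-TIGIT library. Oligodendrocytes had a UMI in 3.86% of anti-PD-1 cells and 3.18% of anti-TIGIT cells, and in 0.625% and 0.378% at 1000 UMIs per cell, where T cells had 2.31% and 2.66%.

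In microglia, the resident macrophages of nervous tissue, the CPM of Il17ra was lower in the anti-PD-1 library. It was 23.5 CPM (20.6 to 26.8) there and 42.7 CPM (34.0 to 53.0) in the anti-TIGIT library. The log2 ratio was -0.86 (-1.23 to -0.48). Per cell the counts were close, at 166 and 170 UMIs per 1000 cells. Shares with a UMI were 13.5% and 15.3%, a difference of -1.85 percentage points (-5.77 to 1.77). At 1000 UMIs per cell they were 2.50% and 4.57%, a difference of -2.07 points (-4.51 to -0.098). The median microglial cell held 6329.5 UMIs in the anti-PD-1 library and 3825 in the anti-TIGIT library. The part of depth was not tested. Type 1 conventional dendritic cells had a log2 ratio of -1.21 (-2.21 to -0.19). Border macrophages (-0.57, -1.27 to 0.07) and type 2 conventional dendritic cells (-0.42, -0.85 to 0.003) had ratios below 0 whose intervals held 0. On log2(CPM + 5), neither of the 2 members testable in microglia was past 2-fold, where 1.27% of 13100 genes were higher and 1.73% lower.

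**Figure D5:**
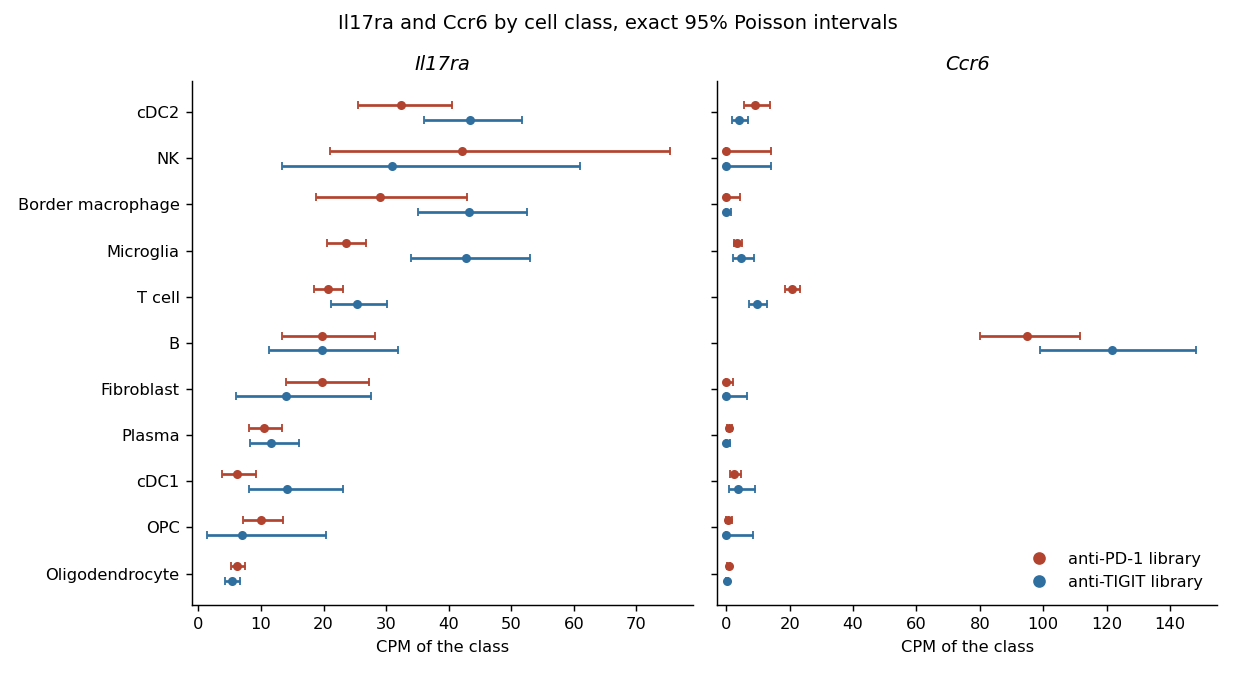
Level of Il17ra and Ccr6 (CPM) in 11 cell classes, anti-PD-1 beside anti-TIGIT, with exact Poisson 95% intervals. Il17ra spans all classes and Ccr6 peaks in B cells, at 94.9 CPM in the anti-PD-1 library and 122 CPM in the anti-TIGIT library.

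Across the 22 points of 11 classes in 2 libraries, the genes whose level on log2(CPM + 5) was most like that of Il17ra, of 13397, were Fosl2 (Pearson r 0.848), Casp8 (0.846), B4galt1 (0.839), Ppp1r15a (0.836) and Fhl3 (0.830). Points of 1 library share its free RNA and depth, so the values describe these libraries.

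The other genes of the pathway were sparse or close between the libraries in T cells. No ligand of the family besides the members (Il17b, Il17c, Il17d, Il25) had 10 UMIs there. Of the other receptors 5 of 8 could be tested, of the inducing cytokines with Ccl20 6 of 7, of the regulators 10 of 10, and of the listed signalling genes 9 of 9, and none was past 2-fold in either direction. Their median log2(CPM + 5) differences were -0.09, 0.09, -0.04 and 0.15. Of 12 surface and lineage genes, 1 was past 2-fold lower, Cd163l1 at -1.02, and none was higher, with a median of -0.35. Il21, a cytokine that helps type 17 cells, had 21.6 CPM in anti-PD-1 T cells and 10.6 CPM in anti-TIGIT T cells, and Ccl20 had 3 UMIs in the whole anti-PD-1 library and none in the anti-TIGIT library. Interleukin 23 has the subunits encoded by Il23a and Il12b. Among the 11 classes, Il23a was highest in type 2 conventional dendritic cells. They had 5.54 CPM from 13 UMIs in the anti-PD-1 library and 1.76 CPM from 5 UMIs in the anti-TIGIT library. Il12b was highest among them in type 1 conventional dendritic cells, at 44.8 CPM and 51.4 CPM. All retained cells held 1208 Il12b UMIs in the anti-PD-1 library and 356 in the anti-TIGIT library. Migratory dendritic cells and ungated cells were not among the classes compared. Il17rc, the partner of IL-17RA, was highest in fibroblasts among the 11 classes, at 70.0 CPM and 33.3 CPM. The log2 ratio had an interval of 0.37 to 1.85.

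Genes known to respond to IL-17 in other tissues did not move one way. In T cells, 8 of 12 could be tested, 4 were past 2-fold higher (Saa3, Ccl2, Cxcl2 and Ccl7) and 1 was lower (Lcn2, with 0 UMIs in the anti-PD-1 library and 77 in the anti-TIGIT library). Among the 11 classes, Saa3, Ccl2, Cxcl2 and Ccl7 were highest in border macrophages, and Lcn2 in anti-TIGIT T cells, at 15.2 CPM. Lcn2 had 412 UMIs in all retained anti-PD-1 cells and 1109 in all retained anti-TIGIT cells, so most lay outside T cells. Neutrophils, with 7 and 40 cells, and ungated cells were not among the classes compared. C1qa, a macrophage gene, had UMIs in 12.9% of anti-PD-1 T cells and 3.71% of anti-TIGIT T cells. The part of free RNA in the 5 differences was not tested. In microglia the acute-phase gene Saa3 had 54.0 CPM in the anti-PD-1 library and 1.03 CPM in the anti-TIGIT library, a log2 ratio of 5.71. The anti-TIGIT level lies below 1.90 CPM, the upper limit for a count of 0 in those cells, so the size of that ratio is uncertain. The neutrophil chemokine Cxcl2 had 41.2 CPM and 260 CPM, a log2 ratio of -2.66. In border macrophages Saa3 had 772 CPM and 177 CPM, and Cxcl2 had 923 CPM and 1548 CPM. The part of free RNA in the microglial values was not tested either.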

How the data were processed

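The deposited gene-by-barcode matrices hold raw UMI counts, which the file headers credit to Cell Ranger, version 8.0.0 with anti-PD-1 and version 8.0.1 with anti-TIGIT; the counts are used as deposited. The build is mm10, and Seurat 5.0.3 and R 4.1.1 are named, per the submitters' processing notes. What those tools did to the matrices is not given in the sources used here. The members and gene lists were chosen with earlier results of these data known.

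Barcodes with under 200 genes or over 10% mitochondrial UMIs were left out (39 and 107 in the anti-PD-1 library, 89 and 176 in the anti-TIGIT library), then Scrublet doublets at 0.8% per 1000 cells (576 and 155, or 4.16% and 2.03%). The 21 classes had 6 markers each. A cell joined a class when it held at least 3 of them and more than of any other class, and T cells also needed 2 of 3 Cd3 genes. Ungated cells were 23.0% of the anti-PD-1 library and 19.8% of the anti-TIGIT library. T cells were divided in this order into gamma-delta (Trdc), regulatory (Foxp3), CD8 (Cd8a or Cd8b1 without Cd4), CD4 and other. The gates were checked against 36 Leiden clusters. The clusters whose gated cells were mostly T cells held 3501 anti-PD-1 and 1661 anti-TIGIT cells, some of them outside the T cell gate.

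For each class, a library's UMIs were added up and divided by all UMIs of the class (CPM), with exact Poisson intervals. Ratios have exact conditional binomial intervals and shares Clopper-Pearson intervals, all at 95%. Intervals of share differences combine the limits of both shares. A share of 0 is given with the limit that 3 counts allow. Thinned shares are the expectation over all draws of 1000 UMIs from each cell. That form was chosen after 1 random draw was seen to move Ccr6. Counts of genes past 2-fold, and the order of classes, were kept to classes holding 50 or more cells in both libraries, and values of smaller classes are given with their counts. For counts of genes, at least 10 UMIs over both libraries were needed and the scale was log2(CPM + 5). With 1 library per group there is no test. The named genes were the 6 members, the fixed pathway lists, the 10 genes outside the lists and gates closest to Il17a and Il17f in T cells and the 5 closest to Il17ra over classes. A split of T cells by 1 further gene is not reported here. Alternatives varied filters, gates, doublet removal, scaling, thinning and the cells included. Scripts were tested on simulated data. The software was scanpy 1.11.5, matplotlib 3.10.9, pandas 2.3.3, scipy 1.17.1 and numpy 2.4.6, under Python 3.11.15.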

Additional observations from a re-analysis of the deposited data

Results flagged for a closer look

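Signal of 3 members lay in barcodes that the filters left out, above the level that a count of 0 allows, and these UMIs entered no comparison. Il23r had 17 UMIs in 5 left-out anti-PD-1 barcodes. Ccr6 had 45 UMIs in 29 left-out anti-PD-1 barcodes and 4 UMIs in 3 left-out anti-TIGIT barcodes. Il17ra had 89 UMIs in 73 left-out anti-PD-1 barcodes and 33 UMIs in 26 left-out anti-TIGIT barcodes. Most were in barcodes called doublets.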

How the results depend on the processing

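No paired analysis was possible because each treatment is 1 pooled library with no replicate number, and for the same reason no replicate could be left out. Of the alternatives, 153 values stayed within the counting interval of the main value and 14 moved further. The sign changed for 10, each of a result whose main interval held 0. In Xist-positive cells only, the log2 ratio was -0.09 for Il17f, 0.08 for Il23r and 0.46 for Il17ra, and the differences in thinned shares were -0.130 percentage points for Il17f and 0.274 for Il17ra. In CD8 T cells only, the differences were -0.0546 points for Il17f and -0.0325 for Il17a or Il17f. In all T cells without thinning they were -0.0214 and -0.0944. With 2 Trdc UMIs needed, the share of gamma-delta T cells differed by 0.00738 points. The log2 ratio of Il23r in T cells (-0.39) was -0.82 (-1.56 to -0.06) with 4 markers needed for the T cell gate. In clusters whose gated cells were mostly T cells, which took in cells outside that gate, it was -0.59 (-1.15 to -0.01). The log2 ratio of Il23r was -1.51 (-2.93 to -0.14) in cells with Y-linked transcripts only and -1.57 in CD8 T cells only. That of Ccr6 (1.11) was 2.02 in CD8 T cells only and 0.42 without them. That of Il17ra (-0.29) was -0.35 (-0.66 to -0.03) with 4 markers and -0.34 (-0.62 to -0.05) in clusters, and that of Il17f (1.30) was 2.82 (0.17 to 8.20) in clusters. The difference in thinned shares with Il17a (0.081 percentage points) was 0.562 in Xist-positive cells only. That for Ccr6 (1.01 points) was 0.522 at 500 UMIs per cell (-0.006 to 0.950), 1.58 in cells with Y-linked transcripts only (-0.0002 to 3.04), 0.899 in Xist-positive cells only (-2.33 to 1.84), 0.652 without CD8 T cells (-0.406 to 1.51), 1.84 at 2000 UMIs per cell, 3.19 without thinning and 0.0869 in 1 random draw of 1000 UMIs, an alternative added after the data were seen. With a pseudocount of 1 CPM, 665 genes were higher and 206 lower in anti-PD-1 T cells, and with 20 CPM 76 and 28, against 195 and 72 with 5 CPM. The share of gamma-delta T cells differed by -0.33 points with Trdc alone and by -1.22 when Trdv4 and Tcrg-V6 also counted. The cause of these moves was not tested. Il17a, Il17f and Il22 rest on few cells, which limits what depth can show.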
